A study of Rattus norvegicus with 100 samples.

Results

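Matrix metalloproteinases are zinc-dependent enzymes that cut collagens, proteoglycans and other proteins of the extracellular matrix, and the tissue inhibitors of metalloproteinases (Timps) bind their active sites. In the uterus, both groups of proteins take part in the matrix turnover of growth, the cycle and involution after birth. Most matrix metalloproteinases are made as inactive proenzymes, so messenger RNA levels are not enzyme activity. Described here are 6 genes of the family, 3 inhibitors (Timp1, Timp2 and Timp3) and 3 proteases (Mmp2, Mmp14 and Mmp7), chosen by name from the 10411 genes with a probe set of their own. They are read by 11 probe sets, which are groups of short probes that report one transcript.

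The samples came from a uterotrophic assay in rats, a test in which the growth of the uterus of an immature female reports estrogenic activity. Animals had received ethinylestradiol (EE), a synthetic estrogen, or belonged to a control group of the same time. The uterus was read on 5 EE and 5 control arrays at each of 2, 4, 8, 24, 28, 48 and 72 h, and the pituitary gland on 3 EE and 3 control arrays at each of 4, 8, 24, 48 and 72 h. All 100 samples were from immature females. The sources used here do not give strain, age, dose, route, dosing schedule or the control's treatment. Nothing in the labels tells if every array was a different rat, so p-values measure the spread between these samples, which may be technical.

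The deposited values are linear intensities, in which 37.2% of the cells are blank. Uterus arrays held 9338 to 10677 values of 15923 probe sets, with medians of 94.6 to 108, and pituitary arrays held 9318 to 10135, with medians of 103 to 110. The number of arrays limits the precision. The pituitary hormone genes Prl, Gh1, Pomc, Cga and Pou1f1 were blank on every uterus array, and 7 of 8 hormone cell markers had a value on every pituitary array. In uterus, all 7 smooth muscle and all 7 stromal fibroblast markers had a value on every array, as did 6 of 8 epithelial markers. Whole tissue was measured, so that fewer cells of a type and less RNA per cell cannot be told apart. Differences were tested with limma's moderated test on log2(intensity + 30.4), two-sided, with Benjamini-Hochberg adjustment over all genes tested and a threshold of 0.05 on the adjusted p. A fold change is on that scale, which understates the change of low values.

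Shown first are the 250 bases before the starts of Mmp7, Timp1 and Timp3, which followed 3 different courses in the same uteri. Timp1 and Timp3 had the widest EE differences of the tested members, and Mmp7 had values with EE only. The sequences are RefSeq's, build GRCr8, read 5′ to 3′ on the gene's own strand. Capitals mark matches, on either strand, to the AP-1 motif TGANTCA, the palindromic estrogen response element (GGTCA, any 3 bases, then TGACC), the GC box GGGCGG or the TATA box TATAAA. Promoter entries matched 4 of the 6 members, and Mmp2 and Mmp14 are named only.
Mmp7, chr8:13132793-13133042, plus strand: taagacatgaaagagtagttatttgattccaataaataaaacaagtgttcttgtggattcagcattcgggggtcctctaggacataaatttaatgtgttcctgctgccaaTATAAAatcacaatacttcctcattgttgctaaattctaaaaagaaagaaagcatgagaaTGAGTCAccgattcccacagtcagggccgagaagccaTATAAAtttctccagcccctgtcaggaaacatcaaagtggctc
Timp1, chrX:3771123-3771372, minus strand: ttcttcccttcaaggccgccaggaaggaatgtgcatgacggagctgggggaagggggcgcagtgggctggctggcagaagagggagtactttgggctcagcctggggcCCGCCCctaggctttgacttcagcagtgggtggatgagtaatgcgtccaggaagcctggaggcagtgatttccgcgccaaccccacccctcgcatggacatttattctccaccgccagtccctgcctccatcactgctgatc
Timp3, chr7:19459559-19459808, minus strand: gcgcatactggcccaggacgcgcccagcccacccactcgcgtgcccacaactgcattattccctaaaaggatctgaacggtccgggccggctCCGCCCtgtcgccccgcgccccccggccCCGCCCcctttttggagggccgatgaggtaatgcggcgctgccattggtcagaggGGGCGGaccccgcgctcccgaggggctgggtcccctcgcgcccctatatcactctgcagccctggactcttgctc
The Mmp7 window held 1 AP-1 match, which began 80 bases before the start, and 2 TATA box matches, the nearer at 43 bases. The Timp1 window held 1 GC box match at 142 bases, and the Timp3 window held 3 GC box matches, at 158, 130 and 75 bases. None of the 3 windows held the palindromic estrogen response element in these letters. Of all 33469 promoter windows of this length, 6.34% held the AP-1 motif, 0.0239% the estrogen response element, 30.5% the GC box and 12.9% the TATA box. The matches overlap none of each other, and they describe letters only. The GC content of the window was 38.8% for Mmp7, 61.2% for Timp1 and 69.6% for Timp3.

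In the uterus, EE was followed by a lasting rise of Timp1, a late and deep fall of Timp3, an early fall of Mmp2 and Mmp14 that grew smaller by 48 h, a fall of Timp2 at 4 and 8 h and the appearance of Mmp7. Mmp7 had no value on any control array and reached a mean intensity of 2224 ± 488 (SD, n = 5) with EE at 72 h. In the pituitary, 0 of the 25 tests of these genes passed. Over the 7 uterus times, 35 of the 42 pairs of member and time could be tested, since Mmp7 had no control values, and 8 rose, 18 fell and 9 did not pass.

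These counts stand against a tissue in which most genes changed. At 2 h none of the 5 tested members passed, beside 4.01% of genes that rose and 2.38% that fell. At 4 h 1 rose and 3 fell (23.6% and 34.5% of genes), at 8 h 1 rose and 4 fell (28.7% and 35.5%) and at 24 h 1 rose and 3 fell (24.8% and 34.4%). At 28 h 2 rose and 3 fell (28.4% and 34.4%), at 48 h 1 rose and 2 fell (24.2% and 33%), and at 72 h 2 rose and 3 fell (23.4% and 36.8%). A call on its own is therefore common, and the sizes and courses carry the description. The median log2 difference of the 5 members was -0.18 at 4 h, -0.59 at 8 h, -0.30 at 24 h, -0.51 at 28 h, -0.11 at 48 h and -0.27 at 72 h, where that of all genes tested lay between -0.08 and -0.04. The balance of calls depended on the scaling: with each array centred on its median, rises made up 52.9% rather than 41.9% of the calls at 24 h, 57% rather than 42.3% at 48 h and 56.4% rather than 38.9% at 72 h, and with quantile normalization 76.7% rather than 62.8% at 2 h. Centring moved the median of all genes at 72 h from -0.07 to 0.04 on the log2 scale, the widest such shift.

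**Figure D1:**
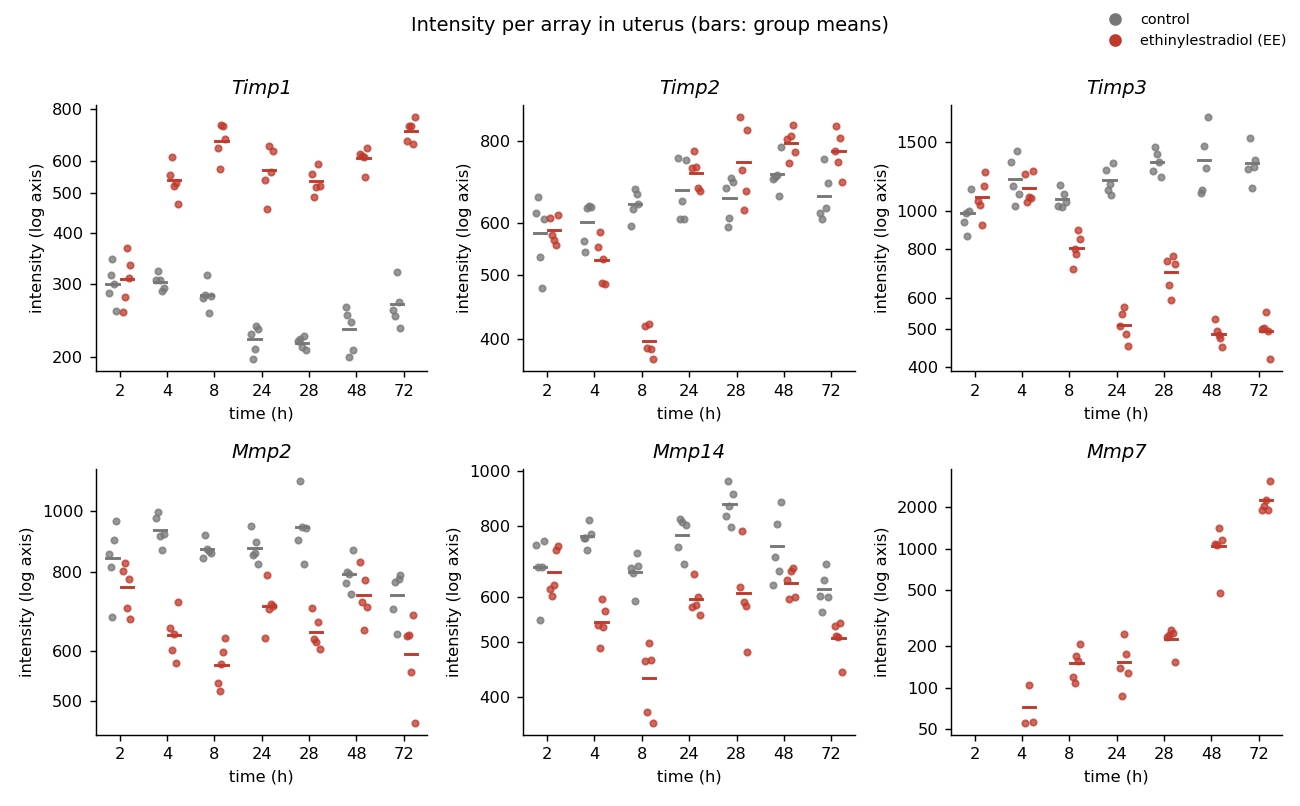
Intensity of each member's gene-level probe set on every uterus array (points) by time in hours, control in grey and EE in red, with bars for group means on logarithmic axes. Timp1 lay higher with EE from 4 h, Timp3 lower from 8 h, and Mmp7 had values with EE only.

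Timp1 encodes a secreted inhibitor of most matrix metalloproteinases. At 2 h its intensity was 286, 316, 345, 300 and 259 on the control arrays and 257, 280, 367, 311 and 334 on the EE arrays, so the groups overlapped. At 4 h the control arrays read 307, 323, 307, 289 and 294 and the EE arrays 554, 613, 519, 529 and 472. Every EE array at 4 h lay above every control array, and the same held at each later time. The share of all genes whose EE and control arrays did not overlap was not counted, here or in later paragraphs. The log2 difference was 0.03 ± 0.08 (SE, n = 5 and 5) at 2 h, with an adjusted p of 0.873 by limma, and 0.76 ± 0.08 at 4 h, a 1.69-fold rise with an adjusted p of 1.89e-12. By limma's test of the change between times the EE effect grew from 2 to 4 h (0.73, adjusted p = 6.85e-07) and from 4 to 8 h (0.40, adjusted p = 0.00747), and no later step passed. The share of all genes that passed the same step test was 32.9% from 2 to 4 h, 19.5% from 4 to 8 h and 0.505% from 48 to 72 h.

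From 8 h on, Timp1 stayed at a plateau against its controls. At 8 h the control arrays read 279, 283, 316, 256 and 281 and the EE arrays 645, 573, 731, 727 and 676, a log2 difference of 1.16 ± 0.08. The differences were 1.24 at 24 h, 1.19 at 28 h, 1.28 at 48 h and 1.32 at 72 h, each with an SE of 0.08. At 72 h the controls read 259, 252, 322, 273 and 235 and the EE arrays 672, 727, 730, 658 and 765. That 2.49-fold rise had an adjusted p of 5.38e-22. The control level itself moved over the assay, from means of 301 ± 32.1 (SD, n = 5) at 2 h and 304 ± 13.3 at 4 h to 221 ± 17.2 at 24 h and 217 ± 7.36 at 28 h (F test across control times, adjusted p = 2.12e-06 by limma).

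Timp3 encodes the inhibitor that binds to the extracellular matrix itself and that also blocks Adam and Adamts proteases. It was the member with the deepest fall. At 4 h the groups overlapped, with control intensities of 1340, 1160, 1030, 1420 and 1110 and EE intensities of 1240, 1050, 1090, 1080 and 1270 (log2 difference -0.07 ± 0.09, adjusted p = 0.519 by limma). At 8 h all EE arrays (714, 802, 778, 897 and 848) lay below all control arrays (1030, 1170, 1020, 1110 and 1060), and Timp3 fell by 0.40 ± 0.09 on the log2 scale. At 24 h the EE arrays read 509, 548, 569, 488 and 453 against 1280, 1140, 1180, 1100 and 1330 in control, a 2.27-fold fall.

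The Timp3 difference was smaller in size at 28 h than at 24 or 48 h. The EE intensities at 28 h were 746, 650, 595, 770 and 734, all above the highest EE value at 24 h, and the log2 difference was -0.91 ± 0.09. At 48 h the EE arrays read 532, 496, 484, 474 and 450 and the control arrays 1110, 1140, 1460, 1290 and 1740, which gave -1.40 ± 0.09 and an adjusted p of 2.07e-20. At 72 h the difference was -1.37 ± 0.09, and the EE arrays read 500, 502, 552, 495 and 420 against 1290, 1540, 1150, 1300 and 1360. The EE effect deepened from 8 to 24 h (-0.78, adjusted p = 8.1e-07) and from 28 to 48 h (-0.49, adjusted p = 0.0028), where 46.2% and 26.8% of genes passed the step test. The change from 24 to 28 h, 0.27 ± 0.13, did not pass (adjusted p = 0.214, 8.26% of genes).

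Timp3 is read by 4 probe sets, and the other 3 also lay lower with EE at the late times. Probe set 1375138_at gave log2 differences of -0.46 at 8 h, -1.10 at 24 h, -0.91 at 28 h, -1.22 at 48 h and -1.11 at 72 h, each with an SE of 0.10. Probe set 1372926_at, with control means of up to 126, gave -0.30, -0.70, -0.53, -0.72 and -0.71 at the same times. The dimmest, 1368989_at, with control means of 58.8 to 86.0, differed early: it rose by 0.28 ± 0.12 at 4 h (adjusted p = 0.0371), and at 24, 48 and 72 h it fell by 0.31, 0.42 and 0.47. At 28 h it gave -0.23 with an adjusted p of 0.079. It had a value on 4 of 5 EE arrays at 48 and at 72 h, and the missing values were left out of its fit.

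Timp2 encodes an inhibitor that, at the cell surface, also bridges the proenzyme of Mmp2 to Mmp14. Its gene-level probe set, 1386940_at, fell at 4 and 8 h. At 8 h the EE arrays read 419, 387, 422, 386 and 373, all below the control arrays at 594, 630, 676, 664 and 643. The log2 difference was -0.65 ± 0.07 at 8 h (adjusted p = 7.3e-12 by limma) and -0.18 ± 0.07 at 4 h (adjusted p = 0.0264), where the groups overlapped. The 4 h call was lost with arrays centred on their medians (adjusted p = 0.0521), and on leaving out control replicate 16, 17 or 18 or EE replicate 21 or 24 it was lost too, with adjusted p between 0.0627 and 0.0778. Between 8 and 24 h the EE effect rose again by 0.74 ± 0.10 (adjusted p = 1.87e-08).

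The late direction of Timp2 depended on the probe set. With 1386940_at, Timp2 rose by 0.17 at 28 h (adjusted p = 0.0392) and 0.22 at 72 h (adjusted p = 0.00889), and it gave 0.15 at 48 h (adjusted p = 0.0665), each with an SE of 0.07 and with overlapping groups. With 1367823_at it fell by 0.42 at 4 h, 0.69 at 8 h, 0.23 at 24 h, 0.48 at 28 h and 0.32 at 48 h, each with an SE of 0.09, and it gave -0.06 at 72 h (adjusted p = 0.565). At 28 h this probe set read 203 ± 20.3 (SD, n = 5) with EE and 295 ± 31.7 in control, and 1386940_at read 744 ± 103 and 655 ± 50.8. With quantile normalization the gene-level difference was 0.01 at 28 h and 0.00 at 72 h, and neither passed. The 28 h call was also lost with filled blanks (adjusted p = 0.0503), with a fit of only these groups (adjusted p = 0.119), and without EE replicate 55 or 59 or control replicate 50 or 51, with adjusted p between 0.1 and 0.192. The early fall at 8 h thus held on both probe sets, and for the times after 24 h these data give no single direction.

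**Figure D2:**
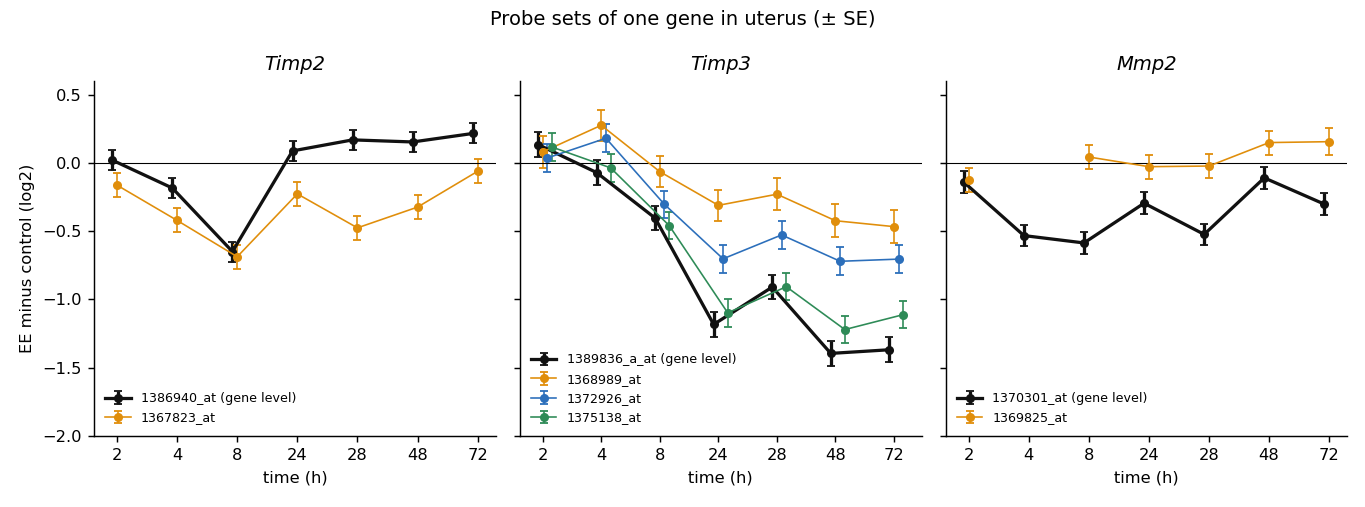
EE minus control in uterus (log2, ± SE) by time in hours for every probe set of Timp2, Timp3 and Mmp2, with the gene-level probe set in black. The Timp3 probe sets run downward together after 8 h, the Timp2 probe sets part after 8 h, and the dim Mmp2 probe set 1369825_at stays near 0.

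Mmp2 encodes gelatinase A, which degrades denatured collagen and type IV collagen, and Mmp14 encodes a membrane-anchored protease that activates the Mmp2 proenzyme. Both fell by similar amounts at 4 h. Mmp2 read 974, 996, 911, 867 and 918 in control and 652, 603, 638, 574 and 716 with EE, and its log2 difference was -0.53 ± 0.08 (adjusted p = 3.67e-08 by limma). Mmp14 read 762, 761, 725, 821 and 776 in control and 535, 487, 594, 531 and 567 with EE, and its log2 difference was -0.48 ± 0.09 (adjusted p = 2.5e-06). All EE arrays of both genes lay below all control arrays. At 2 h neither differed beyond the spread (Mmp2 -0.14, adjusted p = 0.323; Mmp14 -0.03, adjusted p = 0.899), and the step from 2 to 4 h passed for both (-0.39 for Mmp2, adjusted p = 0.00447, and -0.45 for Mmp14, adjusted p = 0.00269).

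The lowest EE means of both genes came at 8 h. Mmp2 then read 533, 518, 572, 597 and 628 against 843, 914, 870, 862 and 856, a 1.5-fold fall. Mmp14 read 463, 376, 499, 464 and 360 against 674, 662, 591, 716 and 680, a 1.51-fold fall with a log2 difference of -0.59 ± 0.09. At 24 h the differences were -0.30 for Mmp2 and -0.36 for Mmp14, and at 28 h they were -0.52 and -0.51. The EE effect of Mmp2 moved up from 8 to 24 h (0.29, adjusted p = 0.0268) and from 28 to 48 h (0.41, adjusted p = 0.0033), and that of Mmp14 from 28 to 48 h (0.31, adjusted p = 0.0471). From 28 to 48 h the steps of the EE groups alone did not pass by limma, at 0.18 for Mmp2 (adjusted p = 0.0735) and 0.07 for Mmp14 (adjusted p = 0.579). Control means went from 942 to 794 for Mmp2 and from 875 to 739 for Mmp14 over that step.

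At 48 h the Mmp2 groups overlapped, at 769, 800, 793, 739 and 867 in control and 829, 717, 647, 777 and 705 with EE (-0.11 ± 0.08, adjusted p = 0.233), but with quantile normalization the difference was -0.30 and passed (adjusted p = 0.00101). Mmp14 passed narrowly (-0.20 ± 0.09, adjusted p = 0.0444), and this call was lost with an offset of 0, with centred arrays, with filled blanks, with a fit of only these groups, and without any 1 of control replicates 63 and 66 and EE replicates 67, 68 and 72, with adjusted p from 0.0508 to 0.267. At 72 h Mmp2 fell by 0.30 and Mmp14 by 0.27, and the Mmp14 fall was lost with centred arrays (-0.16, adjusted p = 0.102). Both controls also moved over the assay, Mmp2 from 942 ± 107 (SD, n = 5) at 28 h to 736 ± 65.9 at 72 h and Mmp14 from 875 ± 64.5 to 619 ± 47.2 (adjusted p = 0.00349 and 0.000208 across control times). The second Mmp2 probe set, 1369825_at, gave group means of 29.9 to 42.8, about the offset, passed at none of its 6 tested times and was not tested at 4 h.

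Mmp7 encodes matrilysin, a small secreted protease typical of glandular and luminal epithelia. It was blank on all 35 control uterus arrays and all 30 pituitary arrays and had a value on 28 of the 35 EE uterus arrays. A blank is a missing value in the deposited table, and the sources used here do not give its reason. At 2 h no EE array had a value, and at 4 h 3 of 5 did, at 55.9, 104 and 56.5. At 8 h all 5 did, at 119, 108, 168, 155 and 207, and every EE array of each later time had one. A value on all EE arrays with none on the control arrays was found in 0.336% of the 10411 genes at 8 h, 0.701% at 24 h, 0.759% at 28 h, 0.557% at 48 h and 0.663% at 72 h.

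No step of Mmp7 between 8 and 28 h passed, and after 28 h it climbed. At 24 h the EE arrays read 137, 87.2, 242, 174 and 127, and at 28 h 233, 238, 258, 245 and 152. At 48 h they read 1070, 1070, 1410, 478 and 1150, so that even the lowest array, replicate 71, lay above the highest at 28 h. At 72 h they read 1900, 2030, 2220, 1910 and 3070, all above the highest at 48 h. Steps between EE groups, a test that was chosen after values were seen and that holds no control, gave 0.83 ± 0.26 from 4 to 8 h (adjusted p = 0.0113, over the 3 arrays with a value at 4 h), 2.00 ± 0.22 from 28 to 48 h (4-fold, adjusted p = 4.18e-08) and 1.13 ± 0.22 from 48 to 72 h (2.2-fold, adjusted p = 0.00166). The shares of all genes that rose in these steps were 18.9%, 15.4% and 4.06%. The steps from 8 to 24 h (-0.01) and from 24 to 28 h (0.51, adjusted p = 0.107) did not pass.

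No fold against control is given for Mmp7, because a blank has no level. With every blank filled at 30.4, the 10th percentile of all values, the log2 difference was 0.43 at 4 h (adjusted p = 0.0346), 1.55 at 8 h, 1.54 at 24 h, 2.05 at 28 h, 4.05 at 48 h and 5.19 at 72 h, sizes that the fill itself sets in part. Mmp7 had a value on all 25 EE arrays from 8 to 72 h and none on the 35 control uterus arrays. Read from its own values, this pattern includes Mmp7 by construction, so its count is a description without a test. It was held by 3 of the 10411 genes, and all 3 were blank on every pituitary array. Beside Mmp7 these were Cuzd1 and Ehhadh, named after values were seen. Cuzd1, an estrogen-regulated gene of the rat uterus, had EE means of 123 at 8 h, 452 at 24 h, 613 at 28 h, 1500 at 48 h and 2215 at 72 h. Ehhadh, a peroxisomal enzyme of fatty acid oxidation, went from 72.7 at 8 h to 232 at 72 h.

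**Figure D3:**
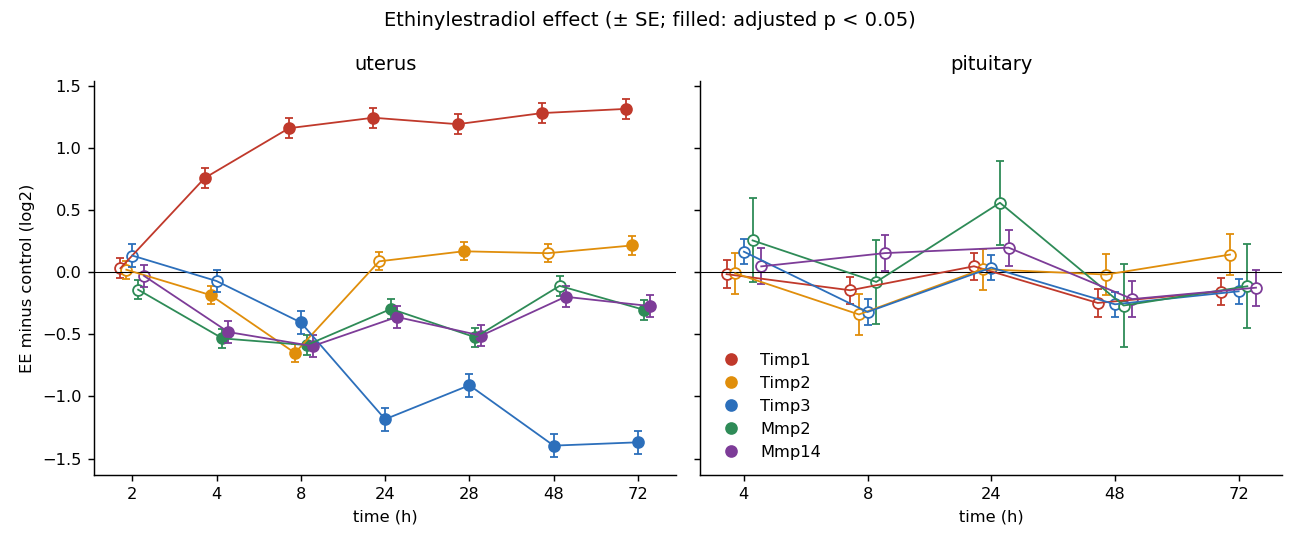
EE minus control (log2, ± SE) by time in hours for the 5 members with control values, in uterus on the left and pituitary on the right, with filled points where the adjusted p was under 0.05. Uterine Timp1 climbs to a plateau and Timp3 descends, and no pituitary point is filled.

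The EE effect differed between times in uterus for all 5 tested members by limma's F test, at adjusted p of 1.39e-16 for Timp1, 5.11e-11 for Timp2, 5.6e-20 for Timp3, 8.47e-05 for Mmp2 and 0.000304 for Mmp14. Such a difference was found in 81.6% of all genes tested. Control levels differed across times for the same 5 genes, beside 32.6% of all genes, with Timp3 at an adjusted p of 0.000334 and Timp2 at 0.0214. Timp3 control means went from 988 ± 101 (SD, n = 5) at 2 h to 1338 ± 97.8 at 28 h and 1325 ± 143 at 72 h, opposite to the course with EE.

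Other signals of the same tissue moved at the same times. At 8 h, when Timp2, Mmp2 and Mmp14 were low, 5 of 7 stromal fibroblast markers fell and 0 rose (35.5% and 28.7% of all genes). Their summed intensity was 8322 to 9124 on EE arrays and 11062 to 12822 on control arrays. At 72 h, when Mmp2 and Mmp14 also lay lower, 3 of 7 fell and 0 rose. The stromal sums then overlapped, at 11888 to 14745 with EE and 12077 to 14660 in control. At 72 h, when Mmp7 was highest, 6 of 8 epithelial markers rose and 0 fell, with sums of 4663 to 6934 against 1390 to 1829. At that time 6 of 6 tested macrophage markers rose, with sums of 2985 to 5067 against 924 to 1273. Of all genes, 23.4% rose and 36.8% fell at 72 h. Smooth muscle sums at 72 h were 12131 to 15052 against 9063 to 12525, and 5 of 7 of these markers rose. Of 3 tested endothelial markers, Kdr and Eng rose and Pecam1 fell at 4 and 8 h. Of all genes, 23.6% and 28.7% rose and 34.5% and 35.5% fell at those times. From 24 to 72 h, when 33% to 36.8% of all genes fell, 2 of these 3 markers fell and 0 rose at each time. Their sums were 297 to 402 with EE against 372 to 597 at 24 h and 352 to 427 against 424 to 593 at 28 h. They were 297 to 325 against 491 to 557 at 48 h and 269 to 389 against 501 to 661 at 72 h. Timp3 was low at these times, and it was also lower at 8 h, when the endothelial sums were 561 to 776 with EE against 487 to 645. No marker of these 5 lists was blank on every uterus array. Blanks made up 38.2% ± 0.974 (SD, n = 5) of an EE array and 34.5% ± 0.836 of a control array at 8 h, and 39.2% ± 2.38 and 36.3% ± 0.858 at 72 h. The signal of the 3′ less the 5′ actin control probe set, a log2 measure of RNA quality, had a lower mean with EE at all 7 times. It was 0.22 ± 0.09 with EE and 0.51 ± 0.11 in control at 8 h, 0.20 ± 0.07 and 0.44 ± 0.08 at 28 h, 0.25 ± 0.13 and 0.62 ± 0.18 at 48 h, and 0.32 ± 0.14 and 0.67 ± 0.27 at 72 h. The part of these shifts in the members' differences was not tested.

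In the pituitary, 0 of the 5 members passed at any time, where 1.49% of genes passed at 4 h, 3.56% at 8 h, 0.0875% at 24 h, 0.321% at 48 h and 2.72% at 72 h. At an unadjusted p under 0.05 there were 3 of the 25 tests, Timp3 at 8 and 48 h and Timp1 at 48 h. The share of all genes at that unadjusted threshold was not counted, so this count has no measure beside it. Among genes that passed at 8 h, rises made up 48.7%, or 58.8% with centred arrays and 38.2% with quantile normalization. At 72 h they made up 64.6%, or 71.1% with centred arrays and 54.6% with quantile normalization. Timp3 came nearest to the threshold. At 8 h it read 545, 630 and 525 in control and 510, 453 and 384 with EE, without overlap, and its log2 difference was -0.32 ± 0.10 (adjusted p = 0.0704 by limma). It passed with quantile normalization (-0.38, adjusted p = 0.0443) and without EE replicate 32 (-0.41, adjusted p = 0.0407). Both values are of the gene-level probe set: of the other Timp3 probe sets at 8 h, 1375138_at gave 0.10 ± 0.13 (adjusted p = 0.72), 1372926_at gave -0.04 ± 0.12 (adjusted p = 0.904) and 1368989_at was not tested. Timp1 at 48 h read 275, 259 and 238 in control and 189, 240 and 209 with EE (-0.25 ± 0.11, adjusted p = 0.464).

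The remaining pituitary differences did not pass, though some were larger than their errors. Timp2 ranged from -0.34 at 8 h to 0.14 at 72 h with an SE of 0.17, Mmp14 from -0.22 at 48 h to 0.20 at 24 h with an SE of 0.14, and Mmp2 from -0.27 at 48 h to 0.56 at 24 h with an SE of 0.34. None of the effects differed between pituitary times (1.1% of all genes did). Among controls, Timp3 alone of the 5 differed across times (adjusted p = 0.00083, beside 1.61% of genes), with 393, 479 and 390 at 4 h, 545, 630 and 525 at 8 h, and 335, 304 and 301 at 72 h.

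**Figure D4:**
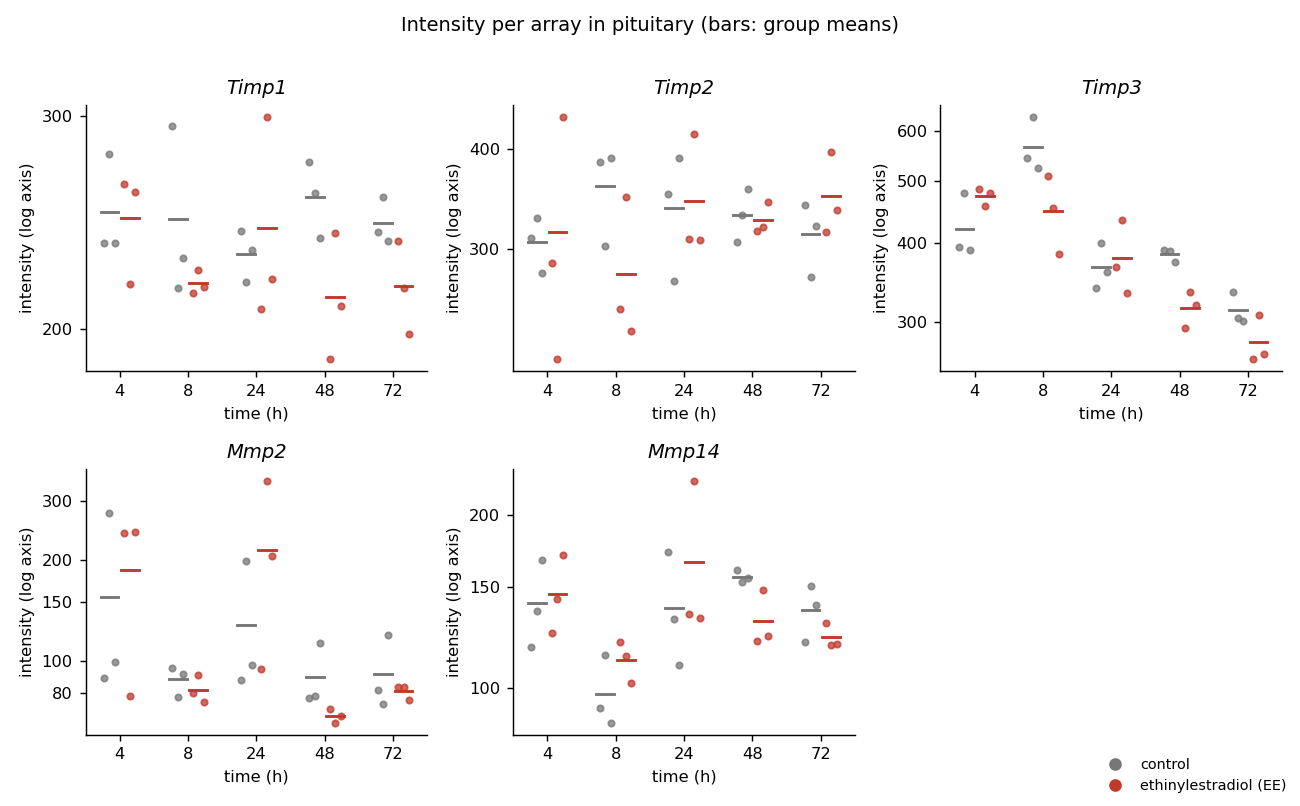
Intensity of 5 members on every pituitary array (points) by time in hours, control in grey and EE in red, with bars for group means on logarithmic axes. The groups lie close together, and single arrays at 4 and 24 h carry Mmp2 values of 198 to 345 in both treatments.

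The wide error of pituitary Mmp2 came with 6 arrays that stood apart, at 198 to 345, where the other 24 read 65.3 to 119. They were control replicate 17 and EE replicates 20 and 23 at 4 h, and control replicate 40 and EE replicates 44 and 46 at 24 h. The same 6 arrays held Col1a1 at 273 to 866 against 66.9 to 197 on the others, Col1a2 at 586 to 1565 against 219 to 466, and Col3a1 at 872 to 1471 against 386 to 642, genes of fibrillar collagen. Decorin (Dcn) read 797 to 1711 against 523 to 810. Prl, the prolactin gene of lactotrophs, overlapped at 3471 to 5393 against 4301 to 6983, and so did Timp1, at 219 to 299 against 189 to 294. These are ranges over arrays sorted by their Mmp2 value, so they are a description without a test. The part of connective tissue in the pituitary samples was not tested.

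The uterine and pituitary EE effects were set against each other in a fit of all 100 arrays. For Timp1 the effect in uterus was higher at all 5 shared times, by 0.77 at 4 h, 1.31 at 8 h, 1.20 at 24 h, 1.53 at 48 h and 1.47 at 72 h (log2, SE 0.13, largest adjusted p = 2.77e-06 by limma). For Timp3 it was lower by 1.22 at 24 h, 1.14 at 48 h and 1.22 at 72 h, and the differences at 4 h (-0.24) and 8 h (-0.08) did not pass. For Mmp14 the difference passed at 4 h (-0.53), 8 h (-0.75) and 24 h (-0.56), and for Mmp2 at 4 h (-0.79, adjusted p = 0.0139) and 24 h (-0.85, adjusted p = 0.00619). Both Mmp2 differences rest on the pituitary groups that held the 6 arrays standing apart. In a limma fit that paired the replicate numbers found in both tissues, the Mmp2 difference at 4 h did not pass (adjusted p = 0.0738). Timp2 passed at none of the 5 times. Of all genes, 33.8% passed at 4 h, 48% at 8 h, 40.1% at 24 h, 36.4% at 48 h and 38.6% at 72 h.

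Without EE, 4 of the 5 members were higher in uterus than in pituitary at every shared time. By the same probe set, control Mmp2 was 5.73-fold to 7.59-fold higher in uterus than in pituitary over the 5 shared times, and control Mmp14 was 3.89-fold to 5.43-fold higher. Timp3 was 1.86-fold to 3.93-fold higher and Timp2 1.73-fold to 2.05-fold. Each of these 20 differences passed, where the uterus was higher in 32% of genes at 4 h, 31.5% at 8 h, 31.9% at 24 h, 30.9% at 48 h and 32.3% at 72 h. Timp1 differed at 4 h only (1.2-fold higher in uterus, adjusted p = 0.0126), a call lost with centred arrays (adjusted p = 0.0612). The 3′ less 5′ actin signal also differed between the tissues. Its control means at the shared times were 0.51 to 0.67 in uterus and 1.38 to 1.54 in pituitary. The part of RNA quality in these tissue differences was not tested.

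The other genes of the pathway came from lists of related proteases, inhibitors and substrates, named with earlier results of these data known. Of 19 further matrix metalloproteinases, 11 were on the array and 5 to 7 could be tested at any one time. Mmp17, a membrane-anchored family member, rose at all 7 times, by 0.65 ± 0.09 (log2) at 2 h, 1.61 ± 0.09 at 4 h, 0.83 at 24 h and 1.42 at 72 h. Mmp11, stromelysin-3, made by stromal cells, fell at 4 to 48 h. It fell by 0.63 at 4 h, 1.12 at 24 h and 1.32 at 28 h. Mmp16 fell by 0.60 at 4 h and 1.07 at 8 h, and Mmp23 rose by 0.26 at 24 h. At 4 h 1 of 6 tested rose and 4 fell (23.6% and 34.5% of all genes), and at 72 h 2 of 7 rose and 0 fell (23.4% and 36.8%).

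Among 5 other genes on the array that were listed with the inhibitors, none rose before 72 h. Reck, a membrane-anchored inhibitor of Mmp2, Mmp9 and Mmp14, fell at each time from 4 to 72 h, by 0.59 at 8 h and 0.58 at 24 h. Sfrp1, a secreted Wnt antagonist with reported effects on metalloproteinases, fell by 1.06 at 8 h and 0.97 at 24 h. Pcolce, which aids procollagen processing, fell by 0.65 at 8 h, and A2m, the broad plasma protease inhibitor, fell by 0.56 at 24 h and rose by 0.50 at 72 h. At 8 h 4 of these 5 listed genes fell, Pcolce and Sfrp1 among them (35.5% of all genes). Their median was -0.59 for the 5, where the median of all genes was -0.04.

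Of 8 tested Adam and Adamts proteases, 2 rose and 4 fell at 8 h, when 28.7% and 35.5% of all genes did. Adamts1, which cuts proteoglycans such as versican, rose by 1.35 ± 0.10 at 8 h and gave 0.14 at 24 h without passing. Adamts9 rose by 0.56 at 8 h and 0.55 at 24 h. Bmp1, which trims procollagens, fell by 0.60 at 8 h and 0.58 at 24 h, and Adam17, the sheddase of Tnf, fell by 0.34 at 24 h. Among activators, surface partners and clearance genes, Pcsk6, a proprotein convertase, rose by 0.93 at 8 h. Lrp1, the receptor that takes up protease and inhibitor complexes, fell by 1.09 ± 0.14 at 24 h, the adhesion proteoglycan Sdc4 by 0.65 and the caveolar protein Cav1 by 0.27.

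In the plasminogen system, whose protease plasmin can activate several metalloproteinases, Plat, tissue plasminogen activator, fell by 0.83 at 8 h and 0.87 at 24 h. Its inhibitor Serpine2 fell by 0.91 at 8 h, and Plau, urokinase, rose by 0.45 at 8 h. The surface partners Anxa2 and S100a10, which together bind plasminogen, rose by 1.34 ± 0.11 and 1.01 ± 0.10 at 24 h. Of the cathepsins and their inhibitors, 5 of 7 rose and 1 fell at 48 h (24.2% and 33% of all genes). Ctss, a lysosomal protease of macrophages and other antigen-presenting cells, rose by 1.28 ± 0.13 at 48 h, Ctsk, the collagen-cutting cathepsin, by 0.87, and the inhibitor Cst3, cystatin C, fell by 0.77. At 48 h macrophage marker sums were 2128 to 2733 with EE and 828 to 1130 in control, and the part of these cells was not tested.

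Among 20 matrix substrates, 4 rose and 6 fell at 24 h, shares near the 24.8% and 34.4% of all genes, and 10 rose and 2 fell at 72 h, beside 23.4% and 36.8%. At 24 h the basement membrane genes Lama2 and Nid1 fell by 1.29 ± 0.15 and 0.61 ± 0.10, and the proteoglycan Dcn fell by 0.37. At 72 h Fn1, fibronectin, rose by 0.86 ± 0.10, Col6a3 by 0.78 and Col6a1 by 0.64. In the pituitary, list genes passed in 6 of 249 tests (2.41%), beside 0.0875% to 3.56% of all genes by time: Pcsk6 rose at 4 h (0.59), Anxa2 fell at 8 h (-0.44), 48 h (-0.54) and 72 h (-0.44), Lamc1 fell at 8 h (-0.29), and Serpine2 rose at 72 h (0.81), all named after values were seen.

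The genes whose uterine course was most like each member's were taken from the Pearson correlation of 14 group means on the log2 scale over 6381 genes with values in every group. All points share the same arrays, and the EE response of the tissue sets high correlations among many genes, so these are a description. For Timp1 they were Psma5 (r = 0.98), Pfn1 (0.98) and Psma2 (0.98). For Timp3 they were Gkap1 (0.98), Kdm6b (0.97) and Kmt2b (0.97), and for Timp2 Cyb5r3 (0.97), Cd82 (0.96) and Gstt3 (0.96). For Mmp2 they were Srpk2 (0.97), Foxp1 (0.97) and Prkd2 (0.97), and for Mmp14 Otud5 (0.96), Cnrip1 (0.95) and Bbx (0.94). Mmp7 had no control values and could not enter this comparison.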

How the data were processed

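Expression was read on 100 RAE230A arrays (70 uterus, 30 pituitary), from 5 µg of total RNA marked with biotin, per the labels. The series table holds 1 deposited intensity, on a linear scale, for each probe set and array. How the authors summarised, scaled and blanked them is not given in the sources used here. Groups came from the sample titles.

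Probe sets of a single gene (12783 of 15923) entered. The one with the highest mean, blanks counted as 0 for this choice, stood for its gene, giving 10411 genes, and all 11 member probe sets were also fitted beside it. Values became log2(intensity + 30.4), the offset being the 10th percentile of all values. Blanks were left out gene by gene. A gene was tested with at least 3 of 5 values per group in uterus or 2 of 3 in pituitary. A mean per group was fitted per tissue, or over all 100 arrays for comparisons of tissues, with variances moderated by limma 3.58.1 under R 4.3.3 and Benjamini-Hochberg adjustment over all genes tested. The fit was tested on simulated data.

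The members, the lists and most tests were chosen with earlier results of these data known. Named list genes are up to 3 per list with the smallest adjusted p at 24 h or at the time with most calls, given there, and their values at other times are added as description. Alternatives changed the offset, scaling, blank handling, samples in the fit and pairing, and left out each array in turn. Another fitted all single-gene probe sets together, still reading each member by its gene-level probe set. RefSeq promoters (GRCr8) were searched for 4 motifs on both strands. No genome coordinates of probe sets were used, and Mmp2 and Mmp14 promoters were not used here.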

Additional observations from a re-analysis of the deposited data

Results flagged for a closer look

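Within groups of 5 uterus arrays, 3 of the 75 sets of values tested held an array far from the rest, and chance marks about 1 in 20 such sets. Mmp14 in EE at 72 h read 442 on replicate 84 and 510 to 540 on the others. Mmp7 in EE at 28 h read 152 on replicate 59 and 233 to 258 on the others. Mmp7 in EE at 48 h read 478 on replicate 71 and 1070 to 1410 on the others.

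The EE effect in uterus differed between times by limma's F test for Timp1 (adjusted p = 1.39e-16), Timp2 (5.11e-11), Timp3 (5.6e-20), Mmp2 (8.47e-05) and Mmp14 (0.000304). It differed between uterus and pituitary, on the log2 scale as uterus minus pituitary, for Timp1 at 4 h (0.77), 8 h (1.31), 24 h (1.2), 48 h (1.53) and 72 h (1.47). The same test passed for Timp3 at 24 h (-1.22), 48 h (-1.14) and 72 h (-1.22), for Mmp2 at 4 h (-0.79) and 24 h (-0.85), and for Mmp14 at 4 h (-0.53), 8 h (-0.75) and 24 h (-0.56).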

How the results depend on the processing

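Each alternative read the members by their gene-level probe sets, and no call changed direction under any of them. The other probe sets were fitted apart from these runs. At 28 h Timp2 rose with 1386940_at and fell with 1367823_at (-0.48), and Mmp2 passed at none of its tested times with 1369825_at. Among results that did not pass, 15 turned sign in at least 1 alternative, 12 of them on leaving out an array, and none of these passed on either side. With quantile normalization Timp2 in uterus was -0.09 at 24 h and -0.04 at 48 h, with the larger offset Timp2 in pituitary at 4 h was 0.00, and with the replicate block the Timp3 tissue difference at 8 h was 0.04. In uterus, the gene-level calls of Timp1 at 4 to 72 h and Timp3 at 8 to 72 h held under each alternative. So did those of Mmp2 at 4, 8, 24, 28 and 72 h. The calls of Mmp14 at 4, 8, 24 and 28 h and of Timp2 at 8 h held too. The narrow calls of Timp2 at 4, 28 and 72 h and of Mmp14 at 48 and 72 h did not, as given with each. Timp2 at 48 h passed with centred arrays (adjusted p = 0.00408) and without control replicate 66 (0.0343) or EE replicate 68 (0.0467). The cause was not tested. Of the 42 pairs, 25 to 26 uterus calls stood with an array left out, and 0 to 1 pituitary calls did. In pituitary 1 call stood with quantile normalization.

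Counts over all genes moved more. At 2 h in uterus 465 genes passed, 266 with only the groups of the comparison in the fit, and 308 to 541 with an array left out (308 without EE replicate 12). In pituitary 102 passed at 4 h, 238 at 8 h and 6 at 24 h, and with only the groups compared 26, 9 and 2 did, a fit with fewer arrays. With blanks filled, 1 passed at 24 h, and at 48 h 34 rather than 22. With an array left out the pituitary ranges were 54 to 105 at 4 h, 59 to 540 at 8 h, 0 to 5 at 24 h, 9 to 20 at 48 h and 87 to 121 at 72 h, where 181 passed with all arrays.

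Titles give 27 replicate numbers in both tissues. Same-numbered samples correlated at -0.06 to 0.16 in their deviations from group means (median 0.07, 8 of 27 over 0.1). These values cannot decide whether a shared number means the same rat, since no value for differently numbered samples is given here. The titles do not say so either, and the main fit did not take the numbers as pairs. With the replicate block, the Mmp2 difference between tissues at 4 h was -0.80 (adjusted p = 0.0738) and the Timp1 control difference at 4 h was 0.23 (adjusted p = 0.0753), and 24 of 25 results of each kind kept their side of the threshold.

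Dim signals limit the low probe sets of Mmp2 and Timp3, whose values lie near the offset, and the blank controls of Mmp7 leave its size against control unmeasured.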
